A study of Gallus gallus with 15 samples.

Results

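AMP-activated protein kinase (AMPK) is a trimeric enzyme whose subunits, together with the kinases that switch it on, are the subject here. The members were the 10 listed genes for the catalytic subunits (PRKAA1, PRKAA2), the scaffold subunits (PRKAB1, PRKAB2), the nucleotide-binding subunits (PRKAG1, PRKAG2, PRKAG3) and the upstream kinase machinery (STK11, CAB39, CAMKK2). All 10 were found by symbol among the 24154 gene rows of the count table, and all 10 were among the 14432 genes tested. Liver RNA came from broiler breeder hens, the parent birds of meat chickens, at 65 weeks of age. The 5 control libraries are from hens fed 0 mg metformin per kg of body weight, and the 10 metformin libraries are from hens fed 75 mg per kg in the diet over 40 weeks, starting at 25 weeks of age. The labels name no strain or genotype, and no other agent is listed for either group. They do not say whether each library is 1 hen or a pool, so the p-values measure the spread between these libraries.

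In the AMPK trimer the catalytic subunit carries the kinase domain, the scaffold subunit holds the complex together and binds glycogen, and the regulatory subunit senses AMP, ADP and ATP. The enzyme becomes active when a threonine in the activation loop of the catalytic subunit is phosphorylated, either by LKB1 with its partners or by a calcium-dependent kinase. Active AMPK slows fatty acid and sterol synthesis and favours fuel burning in mammalian liver, and metformin, a glucose-lowering drug, activates it in mammalian hepatocytes. The measurements here are of transcripts and hold nothing on the phosphorylation or activity of the kinase.

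The metformin libraries differed from each other in a way that touches every result. Reads that fell in no gene made up 27.8% to 36.3% of a control library and 37.0% to 43.5% of metformin 1, 3 and 4. Metformin 2 and 5 were lower, with 14.6% to 17.5%, and metformin 6 to 10 were higher, with 51.5% to 55.1%. With a gap of over 5 percentage points as the border this gives 3 sets of libraries, and no control stood in the lowest or the highest set, where metformin and set cannot be told apart. Each test of a fold change was therefore also run with the set as a covariate. There the metformin term compares metformin 1, 3 and 4 with the controls. Ratios of paralogues had no such fit and were tested again in the controls' set alone. Metformin 1, 3 and 4 also lay above every control in the share of reads in no gene. Metformin and this share therefore cannot be told apart in the controls' set either. Gene reads per library were 21435678 to 26494240 in controls and 8023809 to 41041301 with metformin. They were 17338990 to 23992777 in metformin 1, 3 and 4, and 41041301 and 33574543 in metformin 2 and 5. Metformin 6 to 10 had 8023809 to 11858541. The sets thus differed in depth too, and depth and set cannot be told apart. The 14 hepatocyte markers, all tested, summed to 42374 to 148203 CPM (reads scaled to TMM-adjusted library size, in the usual CPM unit) across the libraries, so the markers of the labelled tissue were present in each.

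In the test of all 15 libraries, 2 of the 10 members rose with metformin and none fell. Both encode nucleotide-binding subunits, PRKAG2 and PRKAG3. Over all genes tested, 12.5% were called higher and 5.73% lower in the same test, by edgeR's quasi-likelihood test at an adjusted p under 0.05. With the library set as a covariate no member was called, against 0.0277% of all genes called higher and 0.00693% called lower. Read against that background of 12.5%, 2 calls among 10 genes are no result about the family as a whole.

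**Figure D1:**
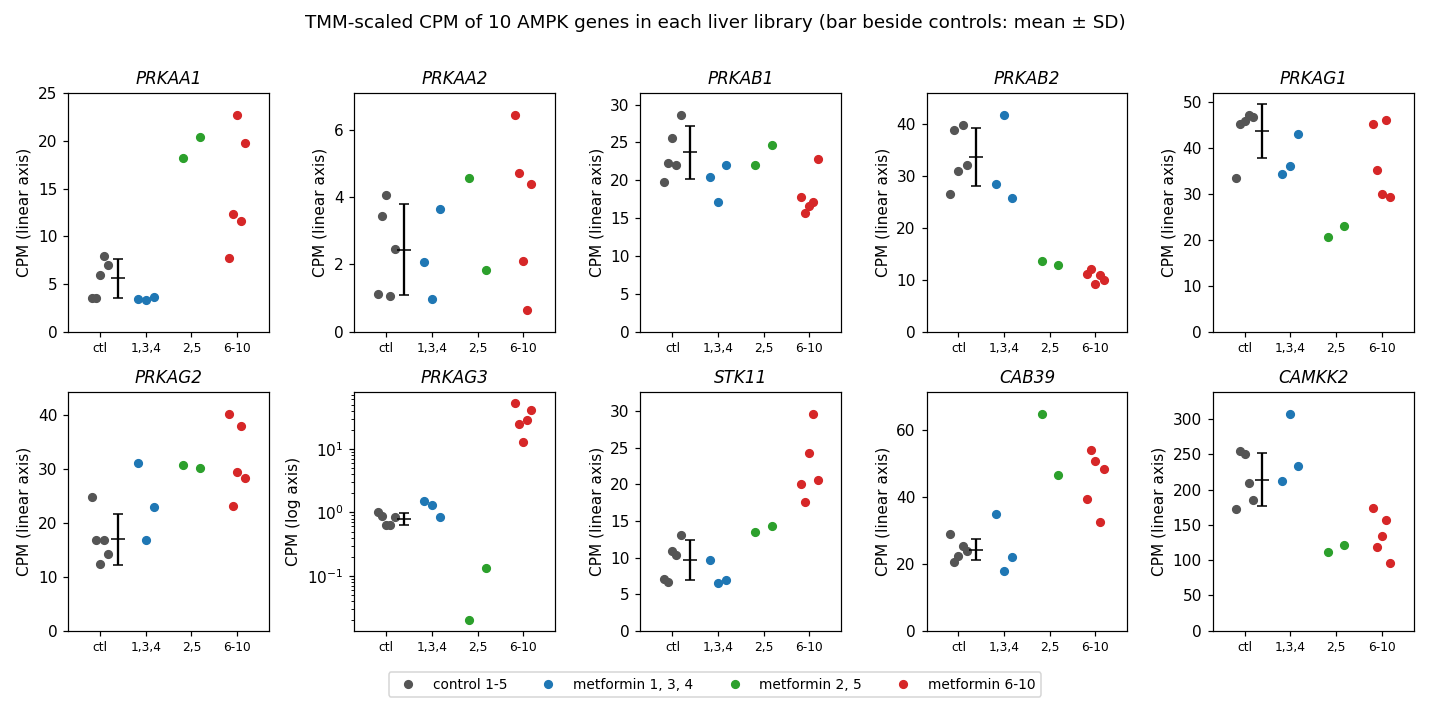
TMM-scaled CPM of each member (linear axes from 0, log axis for PRKAG3) by library set, controls at the left and the metformin libraries grouped by number. Each point is a library, and the bar beside the controls is their mean ± SD. PRKAG3 stood at 12.8 to 53.0 CPM in metformin 6 to 10 and at 1.53 CPM or less in the other 10 libraries.

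PRKAA1 encodes the α1 catalytic subunit. Its level was 3.50, 3.48, 5.96, 7.91 and 7.00 CPM in controls 1 to 5, and with metformin it ran from 3.28 to 22.7 CPM with a median of 11.9. Metformin 1, 3 and 4 gave 3.40, 3.28 and 3.60 CPM, metformin 2 and 5 gave 18.2 and 20.4 CPM, and metformin 6 to 10 gave 7.72, 12.3, 22.7, 11.5 and 19.8 CPM. The groups overlapped: 6 metformin libraries lay above every control and 2 lay below, and the lowest metformin values belonged to the libraries of the controls' own set. The log2 fold change over all libraries was 1.14 ± 0.49 (SE), with an adjusted p of 0.0988 by edgeR. It was -0.70 ± 0.35 with the set as a covariate, with an adjusted p of 0.471. The sign of the PRKAA1 estimate turned, but neither fit called PRKAA1. Without metformin 3 the adjusted p over the other libraries was 0.0415, in a fit that called 3011 genes higher, against 1805 with all libraries.

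PRKAA2 encodes the other catalytic subunit, α2. It was counted in few reads, 6 to 224 per library. Control levels were 1.13, 3.43, 4.08, 1.05 and 2.44 CPM, and metformin levels ran from 0.636 to 6.45 CPM with a median of 2.87. High and low values occurred in every set, and the groups overlapped, with 4 metformin libraries above all controls and 2 below. The log2 fold change was 0.37 ± 0.51 (SE) with an adjusted p of 0.601 by edgeR, and -0.11 ± 0.64 with the set as a covariate. PRKAA1 held 50.3% to 88.3% of the catalytic subunit reads in controls and 49.7% to 94.8% with metformin, so this share also overlapped between the groups.

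PRKAB1 encodes the β1 scaffold subunit and was the steadiest member. Its controls stood at 19.8, 22.3, 25.6, 22.0 and 28.7 CPM and its metformin libraries at 15.7 to 24.7 CPM, with a median of 19.1. The SD of its log2 CPM over the 15 libraries was 0.25, and only 3.74% of tested genes varied less. Of the metformin libraries, 5 of 10 were below every control. These were metformin 3 at 17.1 CPM and metformin 6 to 9 at 17.8, 15.7, 16.6 and 17.2 CPM. The others, metformin 10 among them, lay inside the control range. PRKAB1 had a log2 fold change of -0.27 ± 0.15 (SE), with an adjusted p of 0.179 by edgeR, and -0.26 ± 0.17 with the set as a covariate.

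PRKAB2 encodes the β2 scaffold subunit. Control levels were 26.5, 38.8, 30.9, 39.8 and 32.1 CPM, and metformin levels ran from 9.10 to 41.8 CPM with a median of 12.4. Metformin 1, 3 and 4 gave 28.4, 41.8 and 25.7 CPM, while metformin 2 and 5 gave 13.5 and 12.8 CPM and metformin 6 to 10 gave 11.0, 12.0, 9.10, 10.8 and 9.99 CPM. The level therefore split by library set, with metformin 1, 3 and 4 around the controls and the other 7 below all 8 libraries of the controls' set, as for 13.3% of all genes tested. All 5 of metformin 6 to 10 were below the other 10 libraries, as for 1.48% of genes. For PRKAB2 the log2 fold change was -0.94 ± 0.33 (SE), with an adjusted p of 0.0575 by edgeR, which misses the threshold. PRKAB2 was called without metformin 1, 3 or 4 (smallest adjusted p 0.00872). Those fits called 1266, 2293 and 1556 genes lower over the whole table, against 827 with all libraries. With the set as a covariate the log2 fold change of PRKAB2 was -0.07 ± 0.19. On the GRCg7b assembly the spans of PRKAB2 and FAM78B overlap, and FAM78B stood at 5.73 to 7.57 CPM in controls and 4.77 to 7.49 CPM in metformin 6 to 10.

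PRKAG1 encodes the γ1 regulatory subunit, the broadly expressed form in mammals. Control levels were 33.3, 45.0, 45.8, 47.1 and 46.7 CPM, and metformin levels ran from 20.5 to 46.0 CPM with a median of 34.7. No metformin library exceeded all controls and 4 of 10 lay below all of them, among them metformin 2 and 5 with 20.5 and 23.0 CPM, the lowest of all. PRKAG1 had a log2 fold change of -0.35 ± 0.19 (SE), with an adjusted p of 0.179 by edgeR, and -0.21 ± 0.19 with the set as a covariate.

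PRKAG2 encodes the γ2 subunit, known in humans for variants that cause cardiac glycogen storage. Control levels were 24.7, 16.8, 12.3, 16.8 and 14.1 CPM. Metformin 1 to 10 gave 31.0, 30.7, 16.7, 22.9, 30.1, 40.1, 23.1, 29.3, 37.9 and 28.3 CPM, a median of 29.7. In words, 7 metformin libraries were above every control, none was below, and the other 3 lay within the control range, whose top was control 1. The mean PRKAG2 level was 16.9 ± 4.72 CPM in controls (SD, n = 5) and 29.0 ± 6.96 CPM in the metformin group (SD, n = 10), a log2 fold change of 0.78 ± 0.21 (SE) with an adjusted p of 0.0295 by edgeR. With the set as a covariate the log2 fold change was 0.47 ± 0.24, with an adjusted p of 0.477, and it was 0.23 without metformin 1 and 0.67 without metformin 3. The PRKAG2 call was lost without control 2, 3, 4 or 5, with adjusted p up to 0.0777, while the log2 fold change stayed between 0.68 and 0.95 when any 1 library was left out. Such losses ran over the whole table: 1805 genes were called higher with all libraries, against 2, 233, 16 and 0 without control 2, 3, 4 or 5. They are therefore not particular to PRKAG2. The PRKAG2 span on GRCg7b overlaps a long non-coding RNA gene, LOC112531929, which was at 0.179 to 0.987 CPM in controls and 0.642 to 1.15 CPM in metformin 6 to 10.

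PRKAG3 encodes the γ3 subunit, which in mammals is found mainly in skeletal muscle and is known in pigs for a variant that raises muscle glycogen. Control levels were 1.01, 0.871, 0.627, 0.631 and 0.846 CPM, from 14 to 26 reads. Metformin 1, 3 and 4 gave 1.53, 1.30 and 0.846 CPM, and metformin 2 and 5 gave 0.0204 and 0.134 CPM, which is 1 and 5 reads. Metformin 6 to 10 gave 53.0, 24.3, 12.8, 29.0 and 40.9 CPM, from 152 to 624 reads.

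These 5 libraries stood above the other 10, as for 7.62% of all genes tested. Metformin 2 and 5 stood below the 8 libraries of the controls' set, as for 27.1%. The mean of metformin 6 to 10 was 40.2 times the control mean. The log2 fold change over all libraries was 4.34 ± 1.40 (SE), with an adjusted p of 0.0438 by edgeR, but it was -0.09 without metformin 6 to 10, and 0.59 ± 0.44 with the set as a covariate, with an adjusted p of 0.660. The call was also lost without any single control (adjusted p of 0.0788 to 0.0950) and without any single library of metformin 6 to 10 (largest adjusted p 0.0616). Over all genes, the number called higher fell from 1805 to between 0 and 540 without 1 control. It fell to between 870 and 1219 without 1 library of metformin 6 to 10. By limma voom PRKAG3 was not called, at 3.03 with an adjusted p of 0.266, and without a filter on low counts its adjusted p by edgeR was 0.0513. PRKAG3 reached the level of the low-count filter, 0.467 CPM, in 13 libraries, the controls included, and the SD of its log2 CPM was larger than that of 98.2% of tested genes.

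In the sum of skeletal muscle markers, metformin 6 to 9 lay below every control and metformin 10 lay above every control. Of 10 listed, 8 were in the table and 2 were tested, and MYL1 was at 0 in every library. The sum over the 8 was 4.09 to 9.29 CPM in controls and 0.742 to 9.53 CPM in metformin 6 to 10. ACTA1 was at 8.98 CPM in metformin 10, at 0 to 1.36 CPM in metformin 6 to 9 and at 2.10 to 7.98 CPM in controls. On GRCg7b the span of PRKAG3 overlaps that of CYP27A1, a sterol hydroxylase of bile acid synthesis, which stood at 670 to 1053 CPM in controls and 423 to 786 CPM in metformin 6 to 10. The counts were made on the build GRCg6a, where these overlaps were not checked. Whether the counting used strand is not stated, so how reads in overlapping spans were assigned is not known.

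**Figure D2:**
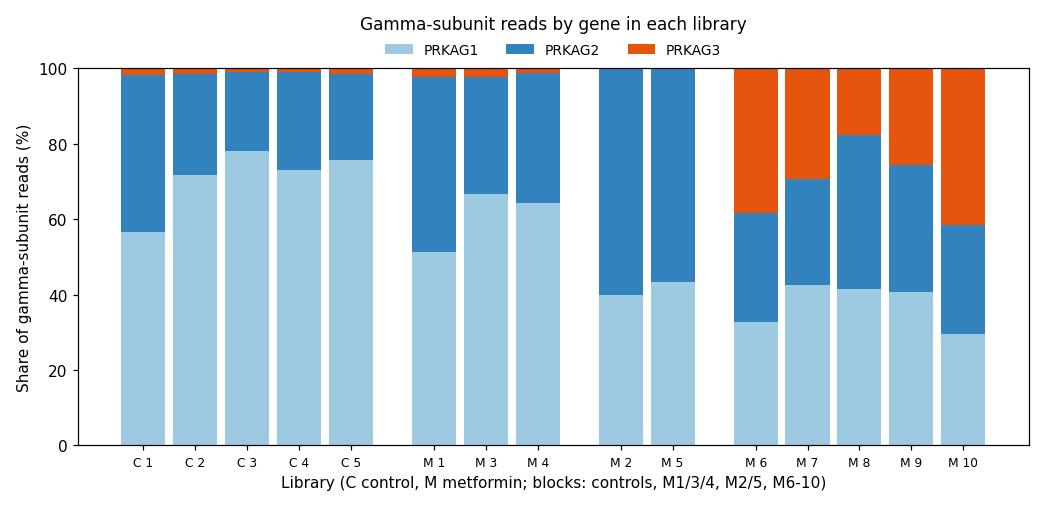
Share of the PRKAG1, PRKAG2 and PRKAG3 reads (percent of their sum) in each library, ordered by group. PRKAG3 took 0.977% to 1.71% in controls and 17.8% to 41.6% in metformin 6 to 10.

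Counted as shares of the reads of the 3 regulatory subunit genes, PRKAG1 held 56.5% to 78.0% in controls and 51.2% to 66.7% where metformin 1, 3 and 4 were counted. Its share was 40.0% to 43.2% for metformin 2 and 5, and 29.6% to 42.6% for the libraries metformin 6 to 10. PRKAG2 held 21.0% to 41.8%, 30.9% to 46.5%, 56.5% to 60.0% and 27.9% to 40.7% across those sets in the same order. PRKAG3 held 0.977% to 1.71% and 1.27% to 2.40% in the first pair of groups, 0.0398% and 0.252% in metformin 2 and 5, but 17.8% to 41.6% across metformin 6 to 10. The PRKAG1 share was lower in both sets without controls, with a larger PRKAG2 share in metformin 2 and 5 and a larger PRKAG3 share in metformin 6 to 10. These shares compare reads, not molecules, since the genes differ in length.

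STK11 encodes LKB1, the main kinase upstream of AMPK in mammalian liver. Control levels were 7.11, 6.63, 10.9, 10.3 and 13.1 CPM, and metformin levels ran from 6.56 to 29.7 CPM with a median of 15.9. Metformin 1, 3 and 4 gave 9.66, 6.56 and 6.98 CPM, metformin 2 and 5 gave 13.6 and 14.3 CPM, and metformin 6 to 10 gave 20.1, 17.5, 24.3, 29.7 and 20.5 CPM. The level followed the sets: metformin 2, 5 and 6 to 10 were all above the 8 libraries of the controls' set, as for 9.1% of genes, and metformin 1, 3 and 4 were not. For STK11 the log2 fold change was 0.76 ± 0.34 (SE), with an adjusted p of 0.111 by edgeR. With the set as a covariate it was -0.32 ± 0.25, with an adjusted p of 0.680. The sign of the estimate turned, but neither fit called STK11. Without metformin 3 STK11 was called, with an adjusted p of 0.0427, in a fit that called 3011 genes higher, against 1805 with all libraries.

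CAB39 encodes MO25α, the adaptor that holds LKB1 in its active form with STRAD. Control levels were 28.8, 20.6, 22.2, 25.3 and 23.9 CPM, and metformin levels ran from 17.9 to 64.8 CPM with a median of 42.9. Metformin 2 and 5 were at 64.8 and 46.6 CPM and metformin 6 to 10 at 39.2, 54.1, 50.6, 32.4 and 48.4 CPM, while metformin 1, 3 and 4 were at 34.9, 17.9 and 22.1 CPM. In all, 8 metformin libraries were above every control and 1 was below. CAB39 had a log2 fold change of 0.77 ± 0.26 (SE), with an adjusted p of 0.0507 by edgeR, which misses the threshold narrowly. CAB39 was called without metformin 1, 3 or 4 (smallest adjusted p 0.0128). Those fits called 2337, 3011 and 2570 genes higher over the whole table, against 1805 with all libraries. With the set as a covariate the log2 fold change of CAB39 was 0.05 ± 0.22. Its span on GRCg7b overlaps ITM2C, HES6, MIR1577 and the protein-coding LOC107051857, which was at 5.85 to 15.4 CPM in controls and 2.29 to 6.80 CPM in metformin 6 to 10.

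CAMKK2 encodes the calcium/calmodulin-dependent kinase that phosphorylates AMPK when cell calcium rises. Control levels were 173, 255, 250, 209 and 185 CPM, and metformin levels ran from 95.4 to 308 CPM with a median of 145. Metformin 3 was the highest of all libraries, and 6 metformin libraries, all in the sets without controls, were below every control. The log2 fold change was -0.36 ± 0.25 (SE), with an adjusted p of 0.290 by edgeR. With the set as a covariate it was 0.23 ± 0.21, with an adjusted p of 0.740. The sign of the estimate turned here too, but neither fit called CAMKK2. CAMKK2 overlaps P2RX4 on GRCg7b, which was at 23.6 to 39.1 CPM in controls and 24.2 to 43.7 CPM in metformin 6 to 10.

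**Figure D3:**
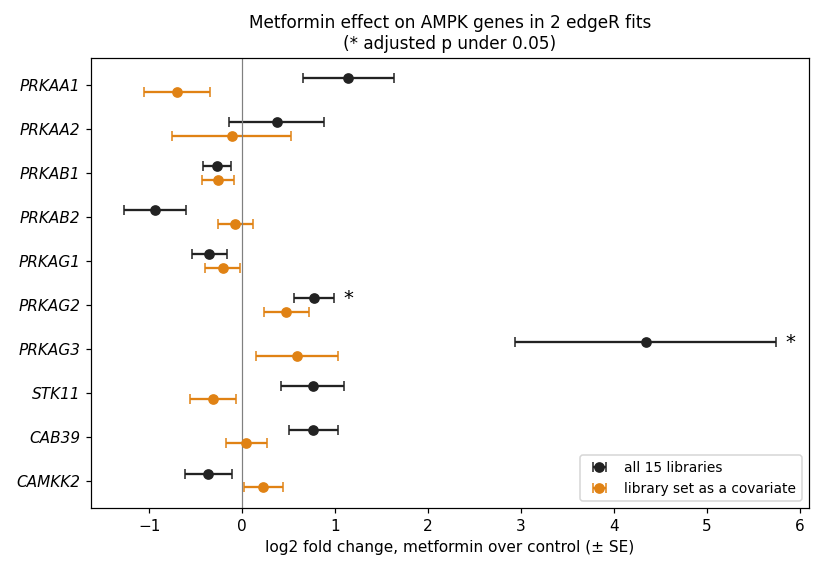
Log2 fold change of metformin over control for each member (points, with SE as bars), over all 15 libraries and with the library set as a covariate. PRKAG2 and PRKAG3, at 0.78 and 4.34, were called in the test of all libraries, and with the covariate no member was called.

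Across the 10 members the patterns by set were mixed. No member had all 10 metformin libraries above all controls (0.651% of tested genes did) or below them (1.05%). Metformin 1, 3 and 4 were above all controls for no member and below for none, against 2.99% and 3.56% of genes. Metformin 6 to 10 stood above the other 10 libraries for PRKAG3 and STK11, as for 7.62% of genes, and below them for PRKAB2, as for 1.48%. Metformin 2 and 5 stood above the 8 libraries of the controls' set for PRKAA1, STK11 and CAB39, as for 23.9% of genes, and below them for PRKAB2, PRKAG1, PRKAG3 and CAMKK2, as for 27.1%. The values with the covariate rest on 3 metformin libraries: with 1 library left out they ran from -0.68 to 0.24 for PRKAA2, from -0.31 to 0.06 for PRKAB2, from 0.40 to 0.82 for PRKAG3, from -0.51 to -0.18 for STK11, from -0.27 to 0.24 for CAB39 and from 0.06 to 0.34 for CAMKK2. The members' profiles also differed among themselves. Of the member pairs, PRKAG1 and CAMKK2 were closest, with a root mean square difference of 0.37 between centred log2 CPM profiles, and PRKAB2 and PRKAG3 were farthest, with 3.24. This measure grows with a gene's own spread, and PRKAG3 had an SD of 2.81 in log2 CPM. Pairs with PRKAG3 ran from 2.33 to 3.24, and all other pairs from 0.37 to 1.71. Less RNA per cell and fewer cells of a type cannot be told apart in any of these bulk samples.

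Within a library the ratio of 2 paralogues does not depend on scaling. PRKAG1 over PRKAG2 was 1.39 ± 0.57 on the log2 scale in controls (SD, n = 5), between 0.43 and 1.89, and 0.23 ± 0.53 with metformin (SD, n = 10), between -0.59 and 1.11. The difference of -1.16 had a two-sided exact permutation p of 0.0020, or 0.0060 adjusted over the 3 ratios, and the ranges overlapped only between 0.43 and 1.11. In the controls' set alone the difference was -0.67, with an exact p of 0.161.

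PRKAB1 over PRKAB2 was -0.50 ± 0.31 in controls (SD, n = 5) and 0.34 ± 0.77 with metformin (SD, n = 10), a difference of 0.85 whose exact permutation p of 0.0386 became 0.0579 after adjustment. It was -0.17 in the controls' set. Every library of that set was at -0.16 or less, while metformin 2, 5 and 6 to 10 lay between 0.39 and 1.19. PRKAA1 over PRKAA2 differed by 0.60, with an exact permutation p of 0.414. A ratio shows unequal change of its genes and not which of them changed.

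**Figure D4:**
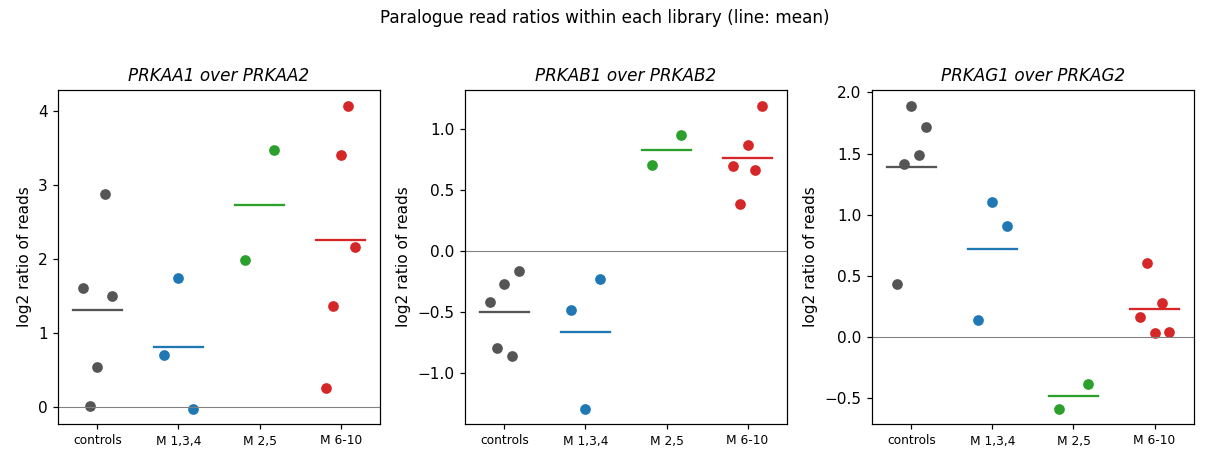
Log2 ratio of reads (plus 0.5) for the 3 paralogue pairs in each library (points) with the mean of each set (lines). PRKAG1 over PRKAG2 lay between 0.43 and 1.89 in controls and between -0.59 and 1.11 with metformin.

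The other genes of the pathway were taken from 4 lists. Of 18 LKB1 partners and AMPK regulators, all tested, 4 rose and 2 fell, beside 12.5% and 5.73% of all genes tested. Their median log2 fold change was 0.31 beside 0.03 over all genes, and -0.06 beside -0.03 with the covariate. FNIP2, a partner of folliculin, rose by 0.83 (adjusted p 0.0369 by edgeR). UBE2O, a ubiquitin ligase that targets AMPK α2 in mammals, rose by 0.58 (adjusted p 0.0399). FNIP1, the other folliculin partner, was called at 3.76 over all libraries (adjusted p 0.0369), but it reached the low-count filter in 1 control and 7 metformin libraries, so it was tested only through the group where it is high. Its value was -2.15 with the set as a covariate, from 0 to 3 reads in metformin 1, 3 and 4 against 4 to 15 in controls, and -3.55 without metformin 3. MAP3K7, a kinase known to phosphorylate AMPK, rose by 0.75 (adjusted p 0.0389) and was 0.06 with the covariate. The 2 that fell, named here after their values were seen, were SESN1, by 0.67, and TAB1, by 0.79. With the covariate SESN1 was at -0.52 and TAB1 at -0.16. Leaving out any 1 control ended the calls of FNIP1, MAP3K7, UBE2O, SESN1 and TAB1, and leaving out control 2, 3, 4 or 5 ended that of FNIP2. All 6 calls were also lost without metformin 7 or 8, and some without other metformin libraries. Over all genes 1805 were called higher and 827 lower with all libraries. Without 1 control these were 0 to 540 and 0 to 336. They were 971 and 329 without metformin 7 and 870 and 294 without metformin 8, so such losses are not particular to these genes.

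Of the 15 adenine nucleotide enzymes, 14 were in the table and 11 were tested. None rose and 1 fell, beside the same 12.5% and 5.73% of all genes. The median was -0.14, and -0.35 beside -0.03 over all genes with the covariate. AK1, an adenylate kinase that makes AMP and ATP from ADP, fell by 1.53 (adjusted p 0.0225 by edgeR), with 3.84 ± 2.09 CPM over the controls (SD, n = 5) and 1.33 ± 0.46 CPM over the metformin libraries (SD, n = 10). All 10 metformin libraries were below all controls, as for 1.05% of genes tested, and the value of AK1 with the covariate was -1.54. The AK1 call was lost without control 2, 4 or 5, where 4, 39 and 0 genes of the whole table were called lower, against 827 with all libraries. Of the 12 AMPK-related kinases 10 were tested and none was called; SIK2 had the smallest p, with 0.32 (adjusted p 0.213).

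Of 30 AMPK substrates, 28 were tested. Of these 7 rose and 2 fell, beside 12.5% and 5.73% of all genes. The median was 0.40 beside 0.03 over all genes, and 0.09 beside -0.03 with the covariate. ACACB, the acetyl-CoA carboxylase linked to fatty acid oxidation, was called at -3.92 (adjusted p 0.0180 by edgeR), with 3.75 ± 1.98 CPM in controls and 0.236 ± 0.259 CPM with metformin (SD, n = 5 and 10). It reached the low-count filter in all 5 controls and in 2 metformin libraries, and had 0 to 12 reads with metformin, so it too was tested only through the group where it is high. TXNIP, which restrains glucose uptake, fell by 0.83 (adjusted p 0.0251), from 428 ± 76.9 to 240 ± 62.0 CPM. TXNIP was below all controls in 10 of 10 metformin libraries, a pattern seen in 1.05% of genes. The ACACB call was lost without control 2 or 5, and that of TXNIP without control 1, 2, 4 or 5. Over all genes, the number called lower fell from 827 to 336, 4, 39 and 0 without control 1, 2, 4 or 5.

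ULK1, an initiator of autophagy, rose by 1.21 (adjusted p 0.0282 by edgeR) and was 0.98 with the covariate. EEF2K, a kinase of translation elongation, rose by 1.76 (adjusted p 0.0278) and was 0.23 with the covariate. The call of ULK1 was lost without control 2, 3, 4 or 5 and that of EEF2K without any 1 control, and 3 substrates were called higher without control 1. Over all genes 540 were called higher without control 1 and 0 to 233 without 1 of the other controls, against 1805 with all libraries. ACACA, the carboxylase of fatty acid synthesis, was at 840 ± 209 and 1383 ± 434 CPM (SD, n = 5 and 10), with 0.72 ± 0.25 (SE) and an adjusted p of 0.0537. GBF1, SREBF2, CRTC2 and PFKFB3, named after their values were seen, were also among those that rose. With the covariate they were at 0.03, 0.92, 1.34 and 1.42. No gene of these lists was called with the covariate.

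**Figure D5:**
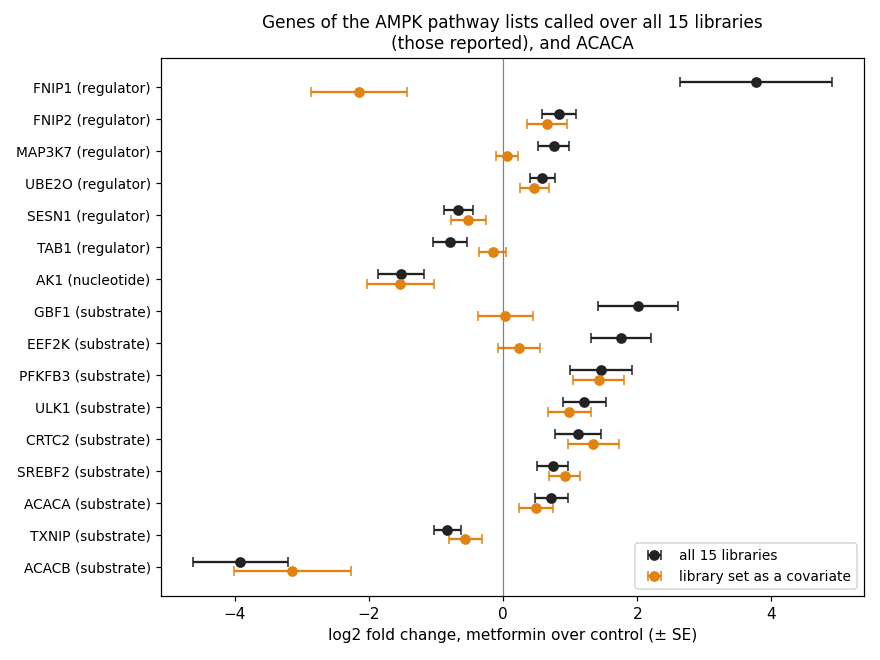
Log2 fold change of metformin over control for called genes of the pathway lists and for ACACA (points, with SE as bars), over all libraries and with the library set as a covariate. AK1 was at -1.53 and -1.54 in the 2 fits and ACACB at -3.92 and -3.14, while FNIP1, with few reads in controls, was at 3.76 and -2.15.

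The genes whose profiles were nearest to a member were sought among 11238 tested genes. For PRKAA1 they were FZD4, PPP2CB and ABCC4, with root mean square differences of 0.27, 0.28 and 0.28 in centred log2 CPM over the 15 libraries, where the median candidate was at 1.12. For STK11 they were C5H14orf4, PFKFB2 and EDC4, with 0.22, 0.27 and 0.31, the median being 0.88. For PRKAA2 they were PCOLCE2, SHB and CYP2R1, with 0.60, 0.61 and 0.64, the median being 1.08. These were farther off than for either other member. PRKAA2 had only 6 to 224 reads per library, and how much counting error adds to its distances was not tested.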

How the data were processed

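The authors deposited raw counts of reads for each gene in 15 libraries. The submitters' processing notes name HTSeq 0.12.3, STAR 2.7.11b, Trim Galore 0.6.4 and FastQC 0.12.0, and the builds GRCg6a and galGal6. Whether counting used strand is not stated there. Dates had replaced 21 gene names. The 5 closing rows (reads in no gene, ambiguous or multiply placed) were left out of library sizes and of every test; those in no gene were 14.6% to 55.1% of a library's reads. RefSeq genes of GRCg7b, matched for 18461 symbols and 10 of 10 members, gave names and neighbours only.

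Metformin was compared with control in edgeR 4.0.16 (R 4.3.3) by the quasi-likelihood test, with TMM factors, filterByExpr and Benjamini-Hochberg adjustment over 14432 genes, calling adjusted p under 0.05. SE is the absolute log2 fold change divided by the square root of F. CPM used TMM-scaled library sizes. Library sets came from the share of reads in no gene. Paralogue ratios used exact permutation over libraries. The code was checked on simulated data. Between any pair of libraries, chi-square per degree of freedom over 2000 genes was at least 90.6, so none agreed within sampling noise.

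The members, the gene lists and the library sets were chosen with earlier results of these data known. Named were all members, from each list up to 4 called genes with the smallest p or else the 1 with the smallest p, ACACA and ACACB in any case, and for PRKAA1, PRKAA2 and STK11 the 3 nearest profiles. A gene named by this rule is not reported here. Alternatives were RLE and upper quartile factors, DESeq2 1.42.0, limma 3.58.1 voom, other filters, the replicate number as a block, parts of the libraries and each library left out. Levels per kilobase were planned and not run, since no transcript lengths were used here, and levels of different genes are therefore not compared. Counting intervals cover counting error only.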

Additional observations from a re-analysis of the deposited data

Results flagged for a closer look

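PRKAG1 in control 1 stood apart from the other controls, at 33.3 CPM against 45.0 to 47.1 CPM. Its gap to the nearest control was 0.848 of the range of the 5 controls. Without control 1 the log2 fold change of PRKAG1 was -0.44 with an adjusted p of 0.136 by edgeR. The check covered 26 groups of values, and chance flags about 1 in 20 groups.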

How the results depend on the processing

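Members called higher were 2 over all libraries, 4 by DESeq2, 4 by voom and 1 without a filter on low counts. They were 0 with the set as a covariate, in the controls' set alone, with the replicate block and without metformin 6 to 10. Members called lower were 0, with 1 by DESeq2 and 3 by voom. Over all genes DESeq2 called 3095 higher and 1141 lower of 20291, and voom called 3323 and 4001 of 14432. Without the filter 1295 of 20315 genes were called higher. In the settings just named with 0 members called higher, at most 4 genes of the table were called higher. Without control 3 or control 4 no member was called higher either, beside 233 and 16 genes of the table. Beside those counts the calls among 10 members are no result about the family. In the controls' set the log2 fold changes were -0.68 for PRKAA1, -0.091 for PRKAA2, 0.49 for PRKAG2, 0.63 for PRKAG3, -0.29 for STK11 and 0.25 for CAMKK2, and with the covariate -0.70, -0.11, 0.47, 0.59, -0.32 and 0.23. By voom they were 1.32 for PRKAA1, -0.38 for PRKAB1, -1.45 for PRKAB2, 0.84 for PRKAG2, 1.01 for STK11, 0.90 for CAB39 and -0.64 for CAMKK2, all called, while PRKAG3 lost its call at 3.03 (adjusted p 0.266 by limma voom). DESeq2 called PRKAG2 and PRKAG3 too, and gave 1.19 for PRKAA1, -0.90 for PRKAB2 and 0.81 for CAB39. CAB39 was called at 0.81 with RLE factors, 0.78 with upper quartile factors and 0.77 with a filter of CPM at least 1. PRKAG3 was 4.32 without a filter (adjusted p 0.0513 by edgeR) and -0.091 without metformin 6 to 10, where PRKAG2 was 0.70. The cause of these changes was not tested.

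Replicates 6 to 10 occur only with metformin, so the replicate block compares metformin 1 to 5 with controls 1 to 5. Metformin 6 to 10 do not enter its fold changes. The block gave 0.64 for PRKAG2 and -0.66 for PRKAG3. Same-numbered libraries had correlations of -0.040 to 0.069 between their deviations from the group means. The metformin mean spans all library sets, so these correlations cannot decide whether the numbers pair samples. The labels name no pairing. Under the block no gene of the table was called, with 1704 at an unadjusted p under 0.05 by edgeR.

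Leaving out 1 library at a time gave 0 to 5 members called higher and 0 to 1 lower, with log2 fold changes of 1.01 to 1.30 for PRKAA1, -1.18 to -0.83 for PRKAB2, 0.68 to 0.95 for PRKAG2, 3.92 to 4.51 for PRKAG3, 0.65 to 0.89 for STK11 and 0.70 to 0.85 for CAB39. It gave 0 to 6 regulators called higher and 0 to 4 lower, 0 to 2 nucleotide enzymes called lower, and 0 to 12 substrates called higher and 0 to 3 lower. Over all genes the same fits called from 0 of 14680 without control 5 to 3011 higher and 2293 lower of 14405 without metformin 3. Beside that swing the ranges of calls are no result about the members or the lists. With the covariate, the controls' set or the replicate block, regulators, nucleotide enzymes and substrates had 0 called in either direction. DESeq2 called 2 nucleotide enzymes lower and 11 substrates higher, beside 1141 genes lower and 3095 higher of 20291.

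In the controls' set the ratio differences were -0.50 for PRKAA1 over PRKAA2, -0.17 for PRKAB1 over PRKAB2 and -0.67 for PRKAG1 over PRKAG2. The replicate block, over metformin 1 to 5 and controls 1 to 5 only, gave -1.16 for PRKAG1 over PRKAG2. Its exact permutation p of 0.0625 was the smallest that setting can give, so it could not fall under 0.05. Metformin 2 and 5, from a set without controls, are part of it. Leaving out 1 library gave 0.75 to 1.03 for PRKAB1 over PRKAB2. Leaving out each library from the fit with the covariate, chosen after seeing the data, called no member. The per-kilobase levels and their coding-length alternative were not run. Depth limits PRKAA2 and PRKAG3, the members with the fewest reads.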
